A study of Mus musculus with 8 samples.

Results

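Mouse embryonic stem (ES) cells that carried at least 5 unique molecular identifiers (UMIs, each marking a captured RNA molecule) over 21 marker genes of the 2-cell embryo are described here as strongly 2C-like cells. They numbered 15 of 3626 kept cells in the untreated library, called control, and 106 of 4551 kept cells in the library treated with CX-5461, out of 3838 and 4922 barcodes. A kept cell had at least 500 UMIs, at most 0.2 of its UMIs on mitochondrial genes, and under 0.1% of its UMIs on Col1a1, Col1a2 and Col3a1, collagen genes that mark fibroblasts. The marker UMIs chose the cells, so the marker values are a description and carry no test.

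The ES cells were derived from the inner cell mass and grown on gelatin with mouse embryonic fibroblast (MEF) feeder cells in medium with LIF and 2i, so both libraries can hold feeder cells. Control cells were untreated and the others received CX-5461, a compound that blocks RNA polymerase I, the enzyme that transcribes ribosomal RNA genes. There were 4 sample labels per condition but no more than a single biological replicate, and all cells of a condition stand in 1 table with renumbered barcodes that do not name a sample. Each condition was therefore taken as 1 library, barcodes shared between samples could not be counted, the treatment and the library cannot be told apart, and no test over cells was run. Median depth was 12683 UMIs over kept control cells and 14075 UMIs over kept CX-5461-treated cells. No doublet caller was run.

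The 2C-like state is a rare and transient state in ES cell cultures in which genes normally transcribed at zygotic genome activation, in the mouse 2-cell embryo, come on again. Dux, listed as Duxf3, is a double homeobox transcription factor that binds and activates many of these genes. Their best known products are the Zscan4 proteins, SCAN-domain zinc finger proteins tied to telomere maintenance, and transcripts that start in MERVL retroviral elements. Many of them lie in clusters of near-identical copies. Such copies are hard to tell apart by short reads, so the level of a single copy is less certain than that of its family.

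The markers fell into 10 families. These were 6 Zscan4 genes, 3 Eif1a-like genes (Gm8300, Gm5662 and Gm2022, relatives of the translation initiation factor eIF1A), Gm21761 with Gm20767, 2 Tcstv genes, 3 Usp17l deubiquitinase genes, and Gm12794, Zfp352, Gm4340, Tdpoz4 and Spz1 by themselves. Promoters of 3 genes from the 3 gene clusters that carried most marker UMIs are given, to show the DNA at the annotated starts of these genes. Counts of 3′ ends do not show where the transcripts of these cells began. They were taken from RefSeq on GRCm38.p6 and run from 250 bases before the annotated start to 50 bases after it, 5′ to 3′ on the gene's strand. The capitals mark a match, in either orientation, to a paired half-site of the kind that double homeobox factors bind. Zscan4c, a marker, is at chr7:11005495-11005794 on the plus strand. BB287469, an Eif1a-like gene that was not a marker, is at chr12:87816327-87816626 on the plus strand. Gm21761, a marker, is at chr13:119913419-119913718 on the minus strand.
Zscan4c: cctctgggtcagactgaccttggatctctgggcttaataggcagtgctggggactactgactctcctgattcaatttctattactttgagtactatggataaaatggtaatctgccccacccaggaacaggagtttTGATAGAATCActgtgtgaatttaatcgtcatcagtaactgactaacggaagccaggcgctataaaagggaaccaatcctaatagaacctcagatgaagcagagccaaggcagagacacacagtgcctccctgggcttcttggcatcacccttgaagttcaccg
BB287469: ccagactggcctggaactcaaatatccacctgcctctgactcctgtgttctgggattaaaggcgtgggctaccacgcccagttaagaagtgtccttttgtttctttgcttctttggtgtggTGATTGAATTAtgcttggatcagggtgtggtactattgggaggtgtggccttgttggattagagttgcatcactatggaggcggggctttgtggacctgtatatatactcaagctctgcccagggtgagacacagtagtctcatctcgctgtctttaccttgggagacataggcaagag
Gm21761: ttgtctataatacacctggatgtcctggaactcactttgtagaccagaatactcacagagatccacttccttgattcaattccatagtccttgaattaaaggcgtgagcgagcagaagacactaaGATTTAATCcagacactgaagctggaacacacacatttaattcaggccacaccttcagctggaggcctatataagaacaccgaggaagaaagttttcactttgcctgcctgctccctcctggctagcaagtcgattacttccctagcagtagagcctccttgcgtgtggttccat

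In the Zscan4c promoter the capitals match, when read on the opposite strand, TGATT, then 2 bases of any kind, then ATCA, and begin 114 bases before the start. That pattern stood in 4 of the 11 marker promoters found in the RefSeq table, those of Zscan4b, Zscan4c, Zscan4d and Zscan4f, and in 0.207% of all 32851 promoters of the same length. The promoters of these 4 genes were 95.3% to 99.3% identical to each other when aligned without gaps at their best shift, so they are not separate occurrences. In the BB287469 promoter the capitals match TGATT, then 2 bases, then ATTA, 129 bases before the start. Among the 97 promoters found for the 21 markers and the 152 genes higher in strongly 2C-like cells of the CX-5461 library, it also stood in that of Gm4027, and it stood in 0.350% of all promoters. In the Gm21761 promoter the capitals match GATT, then 1 base, then AATC, 125 bases before the start. That pattern also stood in the promoters of Gm4340 and AF067061 and in 0.268% of all promoters. The stricter palindrome TGATT, 1 base, AATCA stood in 0 of the 97 promoters and in 0.0335% of all. TATAAA, the core of a TATA box, stood in 5 of the 11 marker promoters, those of the same 4 Zscan4 genes and Usp17lc, and in 13.6% of all promoters. Both strands were searched, the patterns overlap each other, and they were chosen after several had been tried, so the matches are a description of the letters in these windows.

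Strongly 2C-like cells made up 0.414% of kept cells in the control library (exact 95% interval 0.232% to 0.681%) and 2.33% in the CX-5461 library (1.91% to 2.81%). Marker RNA outside these cells was scarce. Among fibroblast-like cells above the collagen limit, which should lack these genes, 0 of 141 control cells had 5 or more marker UMIs. The exact 95% interval of that share reaches 2.58%. In the CX-5461 library 1 of 146 did (0.685%). At least 1 marker UMI was found in 2.34% of kept control cells and in 2.13% of the fibroblast-like ones (3 cells, exact 95% interval 0.441% to 6.09%). These shares were 10.6% and 4.79% after CX-5461. The share of kept control cells with at least 1 marker UMI was thus near that in cells that should lack the genes. The fibroblast-like cells were the deeper ones, with medians of 22538 and 24958.5 UMIs. With every cell thinned to 3000 UMIs and shallower cells left out, 10 of 2827 control cells (0.354%) and 51 of 4532 CX-5461-treated cells (1.13%) had 5 or more marker UMIs.

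Few cells carried the marker RNA. The strongly 2C-like cells held 1325 of the 1403 marker UMIs of kept control cells (94.4%) and 8550 of 9072 in the CX-5461 library (94.2%). Control members had from 6 to 583 marker UMIs, with a median of 33, and the highest cell alone held 44.0% of their sum. In the CX-5461 library the range was 5 to 1097 with a median of 17, and the highest cell held 12.8%. Marker genes took a median of 0.255% of a member's UMIs in the control library, up to 5.70%, and 0.139% in the CX-5461 library, up to 10.7%. In the CX-5461 library the distribution had no gap at the limit of 5, since 21, 18, 13 and 7 cells had 3, 4, 5 and 6 marker UMIs. In the control library 1, 0, 0 and 2 cells did, so no cell lay at the limit. The median total of members was above that of kept cells in the control library and below it in the CX-5461 library. It was 15093 UMIs (range 1086 to 41004) against 12683 in the control library. The CX-5461 values were 13036 (3439 to 29301) against 14075. Members had a median of 2987 genes with a UMI against 3221 in matched control cells, and 3455 against 3416.5 after CX-5461. Markers and other 2C genes together took up to 10.6% and 16.9% of a cell's UMIs in the control and CX-5461 libraries, which lowers the share left for all other genes in the highest cells.

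**Figure D1:**
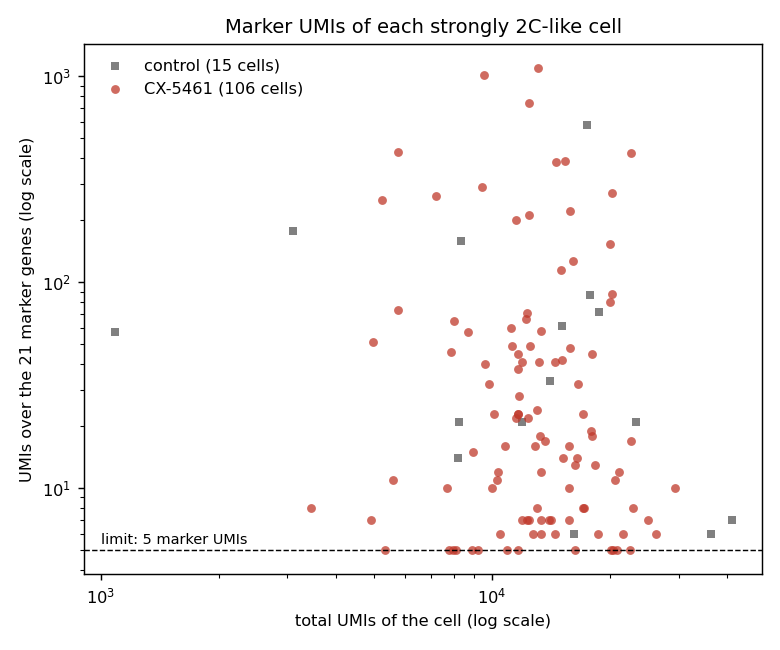
Marker UMIs (log axis) against total UMIs (log axis) of each strongly 2C-like cell, 15 control cells and 106 CX-5461-treated cells, with the limit of 5 marker UMIs as a dashed line. Cells with 50 or more marker UMIs occur over much of the range of total UMIs, and the highest value is 1097 among CX-5461-treated cells and 583 among control cells.

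The Eif1a-like genes were the most widely detected family. An Eif1a-like marker had a UMI in all 15 control members and in 104 of 106 CX-5461-treated members, and a Zscan4 marker in 12 and in 81. The leading single markers in the CX-5461 library were Gm5662 with 2392 UMIs in 98 cells, Gm8300 with 1850 UMIs in 84 cells and Gm21761 with 1406 UMIs in 40 cells. Among control members they were Gm8300 with 424 UMIs, Gm5662 with 377 UMIs and Zscan4d with 99 UMIs. Among the Zscan4 genes of the CX-5461 library, Zscan4d had 353 UMIs, Zscan4c 343, Zscan4a 275 and Zscan4f 244, while Zscan4e had 59 and Zscan4b 24. These counts are from the 3′ end and were not compared per length. Tdpoz4, Spz1, Zfp352 and Gm4340 were rare, with 1, 3, 28 and 40 UMIs in the CX-5461 library, and 21 of the 28 Zfp352 UMIs came from 1 cell.

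The marker families differed in how many marker UMIs a cell had before they were seen. The CX-5461-treated members were split into 34 cells with 5 to 9 marker UMIs, 23 with 10 to 19, 22 with 20 to 49 and 27 with 50 or more. Eif1a-like UMIs were present in 32, 23, 22 and 27 of them. Zscan4 UMIs were present in 18, 18, 18 and 27. Gm21761 or Gm20767 was detected in 4, 4, 12 and 24 cells and Usp17l genes in 2, 4, 9 and 21. Gm12794 was detected in 0, 0, 2 and 19 cells, and Tcstv1 or Tcstv3 in 0, 1, 1 and 16. The rarer families thus appeared mostly in the highest class, in which every family can also be seen more easily because the class was cut on the sum of their UMIs. Of the 106 members, 79 had both Zscan4 and Eif1a-like UMIs, 20 had UMIs of the Eif1a-like family only (at most 41 of them) and 2 of the Zscan4 family only. A member had UMIs of a median of 2 families and at most 9. Of the 15 control members 12 had both, 2 had only the Eif1a-like family, and the median was 3 families.

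**Figure D2:**
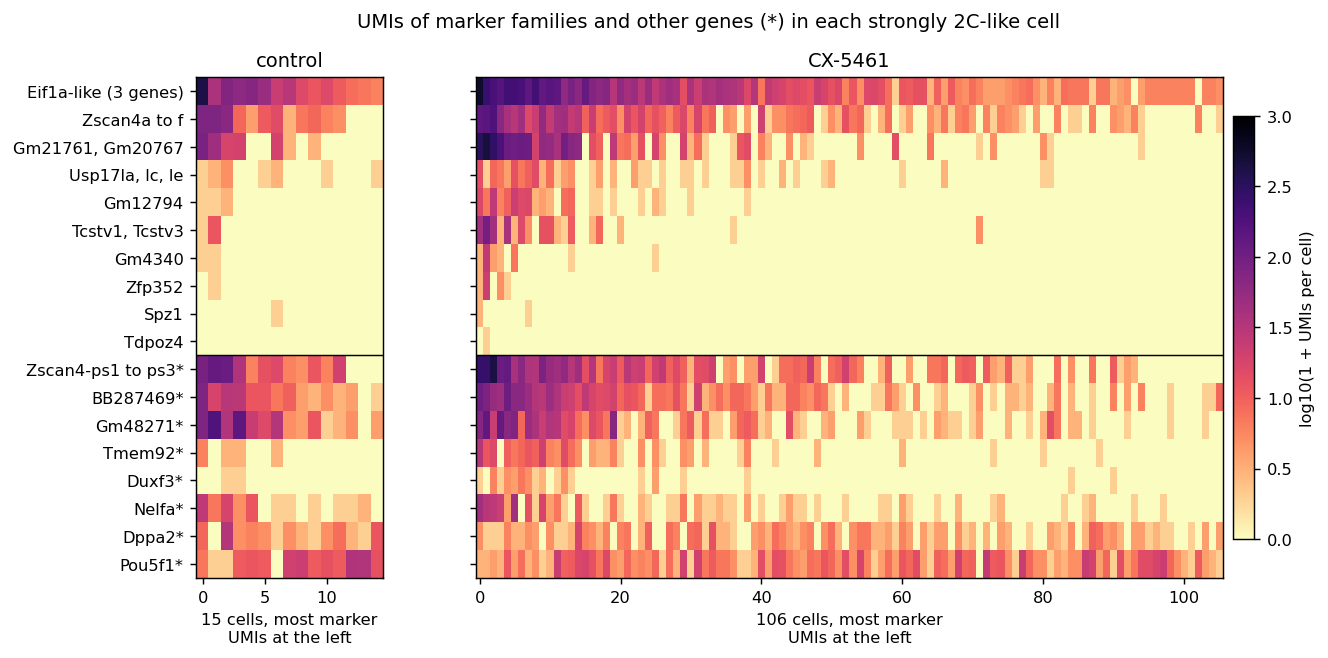
UMIs per cell, as log10(1 + UMIs) in colour, of the marker families (above the line) and of other genes (marked with an asterisk) in each of the 15 control and 106 CX-5461-treated strongly 2C-like cells, a column a cell, ordered by marker UMIs with the highest at the left. Eif1a-like genes fill almost every column (104 of 106 in the CX-5461 library), Gm12794, Tcstv and Duxf3 UMIs gather at the left, and Pou5f1 was detected in 105 of 106 and 14 of 15 cells.

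Dux RNA, which the choice of cells did not use, was found in a minority of them. Duxf3 lies on chromosome 10 of GRCm38 at 58229979 to 58232675 (ENSMUSG00000075046.7). It had 41 UMIs in 18 of 106 CX-5461-treated members, at most 6 in a cell, and 1 UMI in 1060 matched cells. The matched cells were kept cells of the same table with 0 marker UMIs, 10 for each member, chosen by total UMIs. The level was 28.3 CPM (counts scaled to the same total in each set of cells) in members and 0.0690 CPM in matched cells, a ratio of 410 with an exact lower bound of 69.5. By class, 2, 0, 2 and 14 cells had a Duxf3 UMI. All 18 had Zscan4 and Eif1a-like UMIs, and 16 of them also had Gm21761 or Gm20767 UMIs. Among control cells 2 UMIs were found in 2 of 15 members and 0 in 150 matched cells, too few for a fold. A cell without a Duxf3 UMI is not a cell without Duxf3 RNA at this depth.

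Other 2C genes that were not markers were detected in every member, and in many matched cells as well, there mostly as Ddit4l, Patl2 or Sp110. At least 1 UMI of the 42 such genes was found in 15 of 15 control members and 29 of 150 matched cells (19.3%), and in 106 of 106 CX-5461-treated members and 788 of 1060 matched cells (74.3%). Cells with 1 to 4 marker UMIs stood between, with 24 of 70 (34.3%) and 335 of 376 (89.1%). In matched cells most of this RNA was Ddit4l, with 1762 of the 2044 UMIs of the list in the CX-5461 library and 28 of 38 in the control library. Without Ddit4l, Patl2 and Sp110, 39 genes remained. They were seen in 105 of 106 members and 60 of 1060 matched cells (5.66%) of the CX-5461 library. The control library had 15 of 15 and 1 of 150 (0.667%). Cells with 1 to 4 marker UMIs then had 42.3% after CX-5461 and 25.7% in the control library. Ddit4l itself had a ratio of 2.15 (1.92 to 2.41) in the CX-5461 library, and 14 UMIs in 15 members against 28 in 150 matched cells of the control library. The level of the whole list separated the sets more than its detection did, at 3991 CPM in members and 141 CPM in matched cells of the CX-5461 library, a ratio of 28.3 (26.9 to 29.8). The control levels were 3675 and 15.8 CPM, a ratio of 233 (169 to 332). Some of these genes are near-identical copies of markers, so part of their counts may share a source with the marker counts. Ambiguous counts, which the deposited tables list apart, reached at most 68 per gene and whole table among the genes named here, for BB287469 and Gm4027.

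The pooled transcriptomes differed by at least 2-fold for few genes. Of 8641 genes with at least 100 UMIs over members and matched cells of the CX-5461 library, 152 were higher in members by a ratio of at least 2 (1.76% of those tested) and 250 were lower (2.89%). In the control library, with 241086 UMIs over its 15 members, 47 of 2689 genes were higher (1.75%) and 155 were lower (5.76%). These are counts past a fold in pooled UMIs, with no replicate. The higher genes reached the larger ratios: in the CX-5461 library 40 were higher by at least 16-fold and 0 were lower by as much, and in the control library 12 were higher and 3 were lower. Since a gene could pass the limit of 100 UMIs through the members alone, the count of high ratios holds genes that had to differ. Of the 152 genes, 132 had at least 10 UMIs in matched cells and 5 had 0. Of the 250 lower genes, 187 had under 10 UMIs in members, so their ratios are imprecise.

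The genes with the highest ratios were copies from the same 3 clusters as the markers. The clusters were taken as windows around the markers, on chromosome 7 for Zscan4 (6 markers), on chromosome 12 for Eif1a-like genes (3 markers) and on chromosome 13 for Tcstv genes with Gm21761 and Gm20767 (4 markers). In the CX-5461 library 3 of 4 tested non-marker genes of the Zscan4 cluster were higher. The counts were 9 of 12 for the Eif1a-like cluster and 3 of 3 for the Tcstv cluster. Over all tested genes 1.76% were higher. Copies scarce in matched cells could be tested only through their member UMIs, so they had to be higher. Some are also near-identical to markers, which chose the cells. These counts therefore describe the clusters and are no test of them. Zscan4-ps3, annotated as protein coding in spite of its name, had 1419 UMIs in 71 of 106 members and 0 in matched cells, which makes it at least 4726-fold higher, with 3 counts over the matched cells as the floor. Among control cells it had 268 UMIs in 12 of 15 members and 0 in matched cells, at least 894-fold higher. Gm8332, in the Eif1a-like cluster, had 1274 and 5 UMIs in members and matched cells of the CX-5461 library and 128 and 1 among control cells. Gm2016, in the same cluster, was the most widely detected of these genes, with a UMI in 98 of 106 and 14 of 15 members and in 4 of 1060 and 0 of 150 matched cells. Gm21818, in the Tcstv cluster, was restricted to fewer cells, with 1228 UMIs in 32 of 106 members and 104 UMIs in 5 of 15, against 12 and 1 UMIs in matched cells.

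BB287469, whose promoter is printed above, followed the markers through the classes. It was detected in 16 of 34, 13 of 23, 22 of 22 and 27 of 27 CX-5461-treated members from the lowest class to the highest, with medians of 0, 1, 6 and 22 UMIs. Over all members it had 1112 UMIs, 766 CPM, against 23 UMIs in matched cells, 1.59 CPM, a ratio of 483 (320 to 765). It had 205 UMIs in the control library, in 14 of 15 members and 0 in matched cells, at least 683-fold higher.

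Noncoding and unclassified transcripts, those of the clusters included, were called higher at rates that differed by class. In the CX-5461 library 9 of 101 tested lincRNA genes, 6 of 33 antisense genes and 4 of 40 TEC genes were higher. The coding status of TEC genes is to be determined. Processed pseudogenes gave 6 of 425 (1.41%), processed transcripts 1 of 50 (2.00%) and protein coding genes 123 of 7905 (1.56%). A scarce gene could pass the limit of 100 UMIs through the members alone, so a larger share is no result about a class. Gm48271, a TEC gene on chromosome 10 of GRCm38 (50292646 to 50296142), had 956 UMIs in 66 of 106 CX-5461-treated members and 76 UMIs in 71 of 1060 matched cells, a ratio of 126 (99.4 to 161). Control members had 528 UMIs of it, in 14 of 15 cells, and matched cells had 20, a ratio of 264 (169 to 436), and 176 of its 528 UMIs came from 1 cell. Gm38947, Gm47808, Gm48799 and Gm16344 were higher by 90.4-fold, 139-fold, 100-fold and 69.8-fold in the CX-5461 library, and by 443-fold, 229-fold, 320-fold and 146-fold in the control library. Gm16344 is annotated as antisense, and reads from it and from a partner gene may not be told apart. These transcripts were also seen in 3.11% to 8.58% of matched CX-5461-treated cells, unlike Zscan4-ps3, which was in none.

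**Figure D3:**
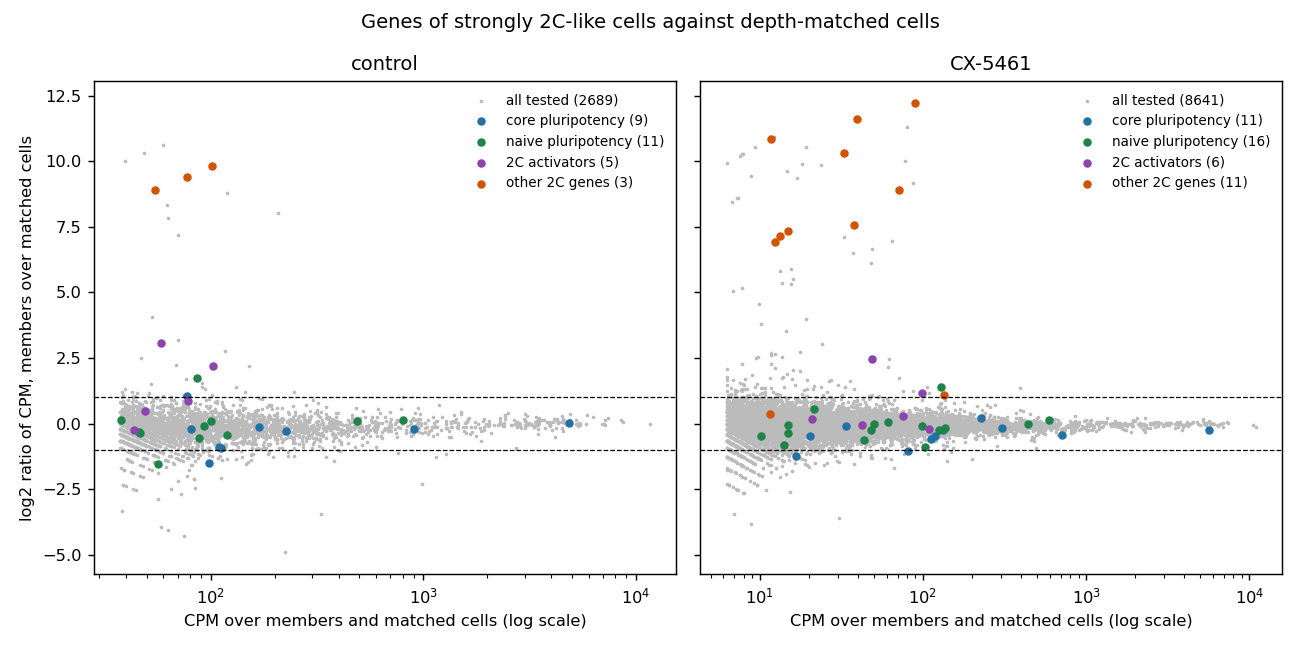
Log2 ratio of pooled CPM, members over matched cells, against the CPM over both (log axis) for the 2689 control and 8641 CX-5461 genes tested, a point a gene, with dashed lines at 2-fold and 4 gene lists in colour. Most other 2C genes lie far above the lines. After CX-5461, 10 of the 11 tested were past 2-fold, and the lowest, at a log2 ratio of 0.36, lies between the lines. The highest of them, Zscan4-ps3, is set against a floor of 3 counts. Pluripotency genes lie mostly between the lines (0 higher and 2 lower of 11 core genes in the CX-5461 library).

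Both libraries shared part of their higher genes. Members and matched cells of the libraries are different cells, so no cell is shared between these comparisons. Of the 152 genes higher in the CX-5461 library, only 25 had enough UMIs to be tested in the control library, and 23 were higher there (15.1% of the 152). Of all genes tested in the control library, 1.75% were higher. All 47 genes higher in the control library were tested in the CX-5461 library, and the same 23 (48.9%) were higher there, against 1.76% of all tested. Genes scarce in matched cells could be tested in the control library only through its members, so their overlap was fixed in advance. Of these 23, 12 had ordinary levels in matched cells: Avpi1, C1d, D10Wsu102e, Dppa2, Eci2, Fbxo15, Glrx, Glrx2, Gm26870, Nelfa, Prps1 and Zcchc17. They include a subunit of the negative elongation factor complex (Nelfa), a chromatin protein of early embryos (Dppa2), a peroxisomal enoyl-CoA isomerase (Eci2), glutaredoxins (Glrx, Glrx2) and a phosphoribosyl pyrophosphate synthetase (Prps1).

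Nelfa and Dppa2 belong to a list of 7 genes known to promote the 2C-like state, and they were the 2 members of that list that were higher. Nelfa had 275 UMIs in 49 of 106 CX-5461-treated members, 189 CPM, and 500 UMIs in 381 of 1060 matched cells, 34.5 CPM, a ratio of 5.50 (4.73 to 6.38). The control library had 71 UMIs in 11 of 15 members and 84 in matched cells, a ratio of 8.45 (6.08 to 11.7). A few cells carried the excess, since 228 of the 275 UMIs lay in the 27 cells with 50 or more marker UMIs and 43 in the highest cell. Dppa2 was spread more evenly, with a UMI in 77.4% of CX-5461-treated members against 63.4% of matched cells, and a ratio of 2.27 (1.99 to 2.58), or 4.60 (3.52 to 5.97) in the control library, where 32 of its 86 UMIs lay in 1 cell. Kdm5b, a histone H3K4 demethylase and the most abundant gene of the list, had ratios of 0.865 (0.722 to 1.03) and 1.82 (1.21 to 2.66). In all, 2 of 6 genes of the list tested after CX-5461 passed 2-fold, both higher, where 1.76% of all tested genes were higher. The median log2 ratio of the list was 0.24 against -0.04 over all tested genes. Among control cells 2 of 5 passed 2-fold, both higher, where 1.75% of all tested genes were higher. The median there was 0.86 against -0.13.

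These genes differed in how they tracked the marker UMIs. In CX-5461-treated members Nelfa stood at 0.526 times its matched level in the lowest class (0.236 to 1.02), 0.847 and 2.80 times in the next classes, and 20.5 times in the highest (16.3 to 26.0). Eci2 had ratios of 1.14, 1.58, 3.12 and 18.9 from the lowest class to the highest, and D10Wsu102e 0.860, 1.37, 2.37 and 13.9. Their counting intervals in the lowest class include 1. Dppa2 was instead above its matched level in every class, at 1.48 (1.12 to 1.94), 2.08, 3.28 and 2.75. Fbxo15, an F-box gene and target of Oct4, behaved like Dppa2, with ratios of 1.97 (1.59 to 2.43), 2.28, 3.35 and 3.18. The 7 control members with 50 or more marker UMIs gave ratios of 25.0 for Nelfa (15.6 to 41.1), 60.8 for Eci2 (33.6 to 119), 23.8 for D10Wsu102e (15.5 to 37.1), 8.44 for Dppa2 (5.77 to 12.3) and 4.72 for Fbxo15 (3.02 to 7.23). Without the control cell with most marker UMIs, Eci2 stood at 39.2 and D10Wsu102e at 12.2.

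**Figure D4:**
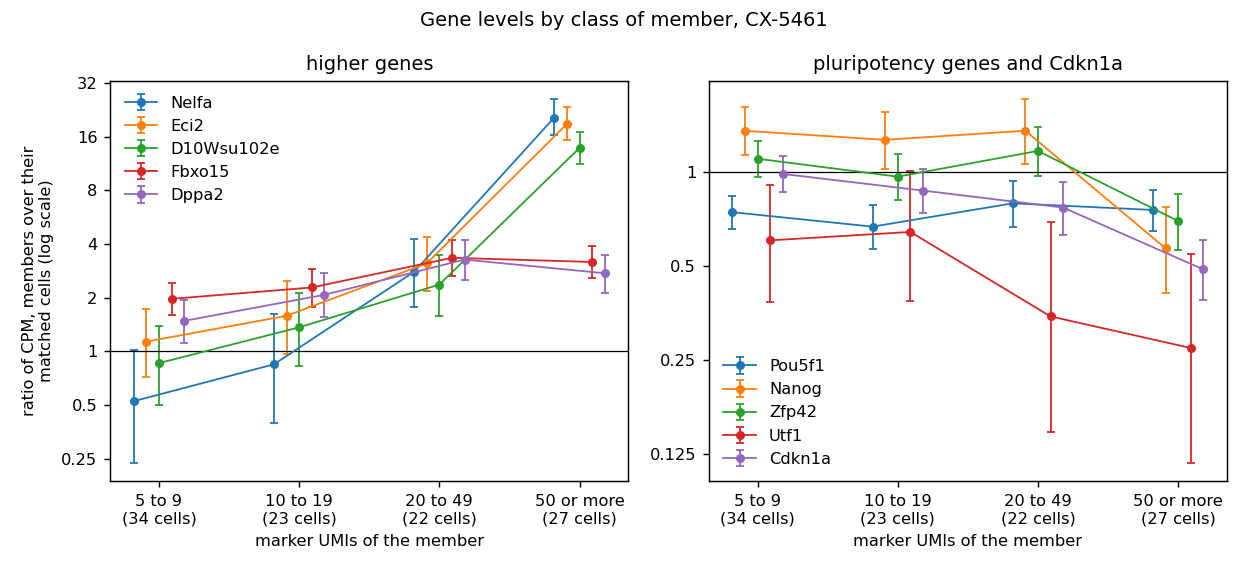
Ratio of pooled CPM (log axis), CX-5461-treated members over their matched cells, for 10 genes in 4 classes of marker UMIs (34, 23, 22 and 27 cells), with exact 95% counting intervals. Nelfa, Eci2 and D10Wsu102e reach 20.5, 18.9 and 13.9 in the class of 50 or more marker UMIs, Dppa2 and Fbxo15 lie above 1 in all classes, and Pou5f1 lies between 0.668 and 0.794.

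Among other genes with a strong difference, Zfp560, a zinc finger gene, had 189 UMIs in members and 119 in matched cells of the CX-5461 library, a ratio of 15.9 (12.6 to 20.1), and 10.0 (4.80 to 20.8) in the control library. Dcdc2c, a doublecortin domain gene, had ratios of 23.8 (16.8 to 34.2) and 83.4 (25.4 to 431). Scamp1, a secretory carrier membrane protein gene, had 13.8 (10.0 to 19.2) and 25.0 (9.17 to 78.7), and Ercc4, a DNA repair endonuclease gene, 11.5 (8.79 to 15.0) and 22.5 (6.28 to 100). The control values of the last 3 rest on 9 to 25 member UMIs. Tmem92, which is induced together with the 2C genes, had 199 and 14 UMIs in the CX-5461 library, a ratio of 142 (82.7 to 265). Sp110, an interferon-inducible nuclear body gene, had a ratio of 123 (72.4 to 223), but 104 of its 184 member UMIs came from 1 cell. Avpi1 had the most member UMIs of the 12 shared genes with ordinary levels. It had 1278 UMIs in 96.2% of CX-5461-treated members, 881 CPM against 342 CPM in matched cells, a ratio of 2.58 (2.42 to 2.74), and a ratio of 4.53 (3.64 to 5.62) in the control library.

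Detection of pluripotency genes in strongly 2C-like cells differed by gene, and levels were lower for some. Pou5f1, which encodes Oct4, had a UMI in 105 of 106 CX-5461-treated members and 14 of 15 control members. Its level was 535 CPM in members and 726 CPM in matched cells of the CX-5461 library, a ratio of 0.737 (0.685 to 0.793), and 788 against 917 CPM in the control library, a ratio of 0.859 (0.737 to 0.997). Neither ratio passed 2-fold, and the 4 classes of the CX-5461 library gave 0.743, 0.668, 0.794 and 0.756. Cells of the highest class differed, with 1 to 22 Pou5f1 UMIs and a median of 4. The 4 cells with most marker UMIs had 2, 2, 3 and 2, and a cell with 221 marker UMIs had 22. Of the control members, the 7 cells with most marker UMIs had 39 Pou5f1 UMIs, a ratio of 0.518 (0.366 to 0.715). The 3 control cells with the fewest marker UMIs had 79, a ratio of 0.948 (0.743 to 1.20).

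Nanog, Esrrb, Zfp42 and Utf1, other genes of the pluripotency network, were lower in the highest class of the CX-5461 library. Nanog had ratios of 1.35 (1.13 to 1.61), 1.27, 1.36 and 0.569 (0.409 to 0.774) from the lowest class to the highest, Zfp42 had 1.10, 0.966, 1.17 and 0.696, and Esrrb 1.05, 0.969, 1.15 and 0.279 (0.0896 to 0.664). Nanog thus lay above its matched level in every class but the highest, while the counting intervals of Zfp42 and Esrrb included 1 in these classes. Utf1 was below its matched level already in the lowest class, at 0.604 (0.382 to 0.912), and stood at 0.273 (0.117 to 0.545) in the highest. In the 7 highest control cells Utf1 had 0 UMIs against 99 in 70 matched cells. Esrrb there had 4 UMIs, Nanog had a ratio of 1.10 (0.601 to 1.89), and Zfp42 had 0.647 (0.462 to 0.885). In the highest CX-5461 class fewer members than matched cells had Nanog (55.6% against 79.6%) or Zfp42 UMIs (63.0% against 90.4%). The same held for Esrrb (14.8% against 43.0%) and Utf1 (22.2% against 48.9%). Sall4 (37.0% against 29.3%) and Fbxo15 (88.9% against 69.3%) went the other way. Sox2 had a ratio of 0.546 (0.342 to 0.831) in that class and 0.267 (0.0317 to 0.998) in the 7 highest control cells.

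Taken as a list, 12 core pluripotency genes had a median log2 ratio of -0.44 over the 11 tested in the CX-5461 library, where 0 were higher and 2 (Utf1 and Fgf4) were lower by 2-fold. The control library gave a median of -0.22 over 9, with 1 higher (Sall4) and 1 lower (Gdf3). Over all tested genes 2.89% were lower after CX-5461, and 1.75% were higher and 5.76% lower among control cells. The list's share of a cell's UMIs, of which Dppa5a gives most, had a median of 0.610% in members and 0.743% in matched cells of the CX-5461 library. The control values were 0.538% and 0.682%. Its summed level stood at a ratio of 0.842 (0.824 to 0.860) and 0.970 (0.921 to 1.02). The 16 naive pluripotency genes had medians of -0.13 and -0.10, while their summed level, to which Spp1 and Zfp42 add most, lay the other way at ratios of 1.06 (1.02 to 1.10) and 1.12 (1.03 to 1.23). In the CX-5461 library their median share was 0.108% against 0.188% in the highest class and 0.219% against 0.192% in the lowest. Fbxo15 was the 1 higher gene in each library. None was lower in the CX-5461 library and 1 of 11 was in the control library, Nr0b1 (Dax1) with 5 UMIs against 145. Tfcp2l1, a naive state transcription factor, had a ratio of 0.542 (0.431 to 0.675) in the CX-5461 library.

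Over all members the p53 targets lay near their matched level as a list, and S phase genes lay below it. The 30 p53 targets had a median log2 ratio of 0.02 over 27 tested in the CX-5461 library, with 0 higher and 1 lower (Plk3), and 0.18 over 7 in the control library, with 0 and 0. Their share of a cell's UMIs was 0.560% in members and 0.558% in matched cells of the CX-5461 library. The control values were 0.298% and 0.297%. In the highest class of the CX-5461 library the median share was 0.434% against 0.564%, and in the lowest class 0.582% against 0.548%. The highest control class had 0.281% against 0.283%. Cdkn1a, the cyclin-dependent kinase inhibitor p21, had ratios of 0.986 (0.861 to 1.12), 0.872, 0.769 and 0.487 (0.388 to 0.604) from the lowest to the highest class of the CX-5461 library. In the 7 highest control cells it had 2 UMIs against 178, a ratio of 0.112 (0.0135 to 0.412), or 0.0629 without the control cell with most marker UMIs. Mdm2, the p53 ubiquitin ligase, had an overall ratio of 1.02 (0.880 to 1.19) in the CX-5461 library. Mdm4, its partner, had 38 UMIs against 979, a ratio of 0.388 (0.273 to 0.536), and 0.930 (0.389 to 1.92) in the control library. S phase genes had medians of -0.19 and -0.46 and G2/M genes of 0.10 and -0.04 in the CX-5461 and control libraries. None of the 37 and 46 tested genes of these lists passed 2-fold in the CX-5461 library, and 6 of 25 S phase genes (against 5.76% of all tested genes) and 0 of 23 G2/M genes were lower by 2-fold in the control library. The summed level of S phase genes stood at ratios of 0.885 (0.858 to 0.913) and 0.737 (0.674 to 0.804).

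**Figure D5:**
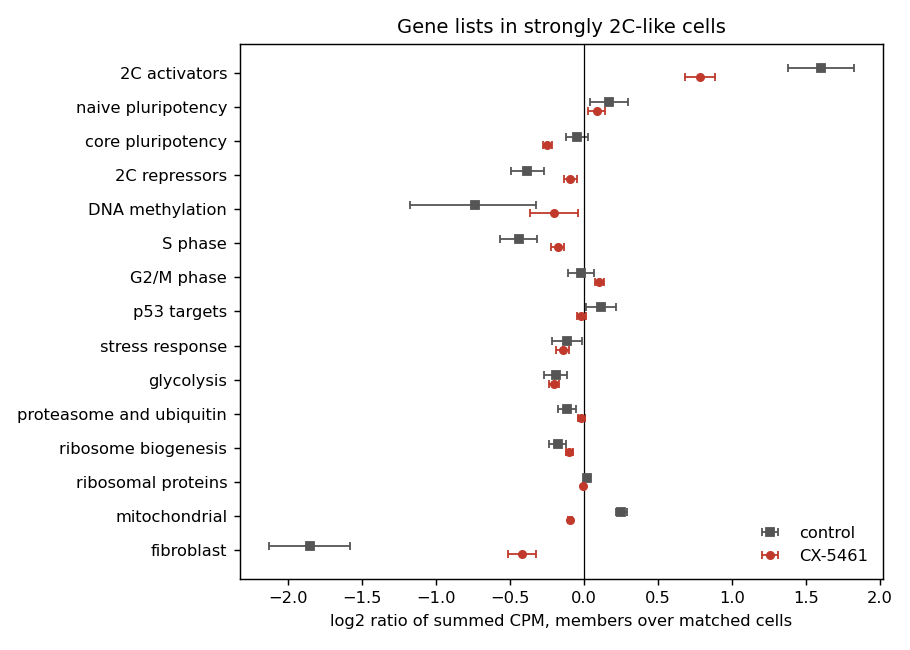
Log2 ratio of the summed CPM of 15 gene lists, members over matched cells, in the control library (squares) and the CX-5461 library (circles), with exact 95% counting intervals. Of the lists plotted, which leave out the markers and the other 2C genes, the 2C activators lie highest (1.60 and 0.79), the fibroblast genes lie lowest in both libraries (-1.85 and -0.42), and the ribosomal protein genes lie at 0.022 and -0.0027.

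Ribosomal RNA synthesis is the target of CX-5461. Ribosomal protein genes were close to their matched levels, and ribosome biogenesis genes lay somewhat below theirs. The 77 ribosomal protein genes had a median log2 ratio of -0.01 in both libraries, with 0 higher in either, and with 0 lower in the CX-5461 library and 1 lower (Rps2) in the control library. They took a median of 23.2% of a member's UMIs and 23.4% of a matched cell's after CX-5461, and 28.4% and 27.6% without it. The 79 ribosome biogenesis genes had medians of -0.08 over 77 tested and -0.26 over 59 tested, with 0 and 4 lower by 2-fold (Nob1, Ebna1bp2, Utp11 and Utp4 in the control library) and 0 higher. Their summed level stood at ratios of 0.934 (0.918 to 0.950) and 0.885 (0.850 to 0.921). Their median share in the highest class was 0.916% against 1.07% in the CX-5461 library and 0.848% against 1.28% in the control library. The lowest class had 1.03% against 1.06% and 0.879% against 1.15%. Npm1, the nucleolar protein nucleophosmin, had ratios of 0.968 (0.934 to 1.00) and 0.982 (0.909 to 1.06). Nucleolin (Ncl), which is named in the list of 27 repressors of the 2C-like state, had 0.912 (0.862 to 0.966) and 0.698 (0.608 to 0.797). That list had medians of -0.13 over 26 tested and -0.47 over 12 tested. Of its genes 1 (Ehmt2) and 2 (Chaf1b and Atrx) were lower, against 2.89% and 5.76% of all tested genes, and 0 were higher. Its median share in the CX-5461 library was 0.222% against 0.304% in the highest class and 0.326% against 0.311% in the lowest. The median share of mitochondrial UMIs was 4.18% in members and 4.17% in matched cells of the CX-5461 library. Among control cells it was 2.84% and 2.12%.

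DNA methylation genes had medians of -0.24 over 8 tested in the CX-5461 library and -0.75 over 3 tested in the control library, with none past 2-fold. Uhrf1, which recruits the maintenance methyltransferase, had ratios of 0.897 (0.726 to 1.10) and 0.757 (0.496 to 1.11). In the highest class it stood at 0.696 (0.399 to 1.14) and, in the control library, at 0.376 (0.120 to 0.900) on 5 UMIs. Glycolysis genes had a median of -0.19 in the CX-5461 library, with 1 of 17 lower (Hk2), and -0.41 in the control library with 0 of 12. Stress response genes had medians of -0.08 and -0.29. After CX-5461, 1 of 24 was lower (Egr1), against 2.89% of all tested genes. Among control cells 2 of 11 were lower (Egr1 and Fos), against 5.76% of all tested genes. The median share of the stress response list in the CX-5461 library was 0.252% against 0.383% in the highest class. It was 0.356% against 0.385% in the lowest. Proteasome and ubiquitin genes had medians of -0.02 and -0.14, with 0 of 34 past 2-fold in either library.

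Genes lower in members were mostly scarce. Among the lower genes with most member UMIs in the CX-5461 library were Ftl1 (ferritin light chain) with 119 UMIs against 3054, a ratio of 0.389 (0.321 to 0.468), Lgals1 (galectin-1) with 0.471 (0.384 to 0.572), Utf1, and Alpl (alkaline phosphatase, an ES cell marker) with 0.443 (0.329 to 0.585). Ftl1 and Lgals1 were lower in the control library too, at 0.203 (0.151 to 0.267) and 0.370 (0.258 to 0.516). Egr1, an immediate early gene, stood at 0.312 (0.212 to 0.443) and 0.335 (0.133 to 0.703). Eras, an ES cell Ras gene, had the lowest ratio in the CX-5461 library, with 1 UMI against 140 in 112 of 1060 matched cells, a ratio of 0.0714 (0.00179 to 0.404). Its control values were 3 against 38. The 12 lowest genes in the CX-5461 library also held Acta2, Tmem87a, A830018L16Rik, Parp9, Krt42, Tinagl1, Stpg1, Ets2, Slc15a4 and Gm43444, each with 1 to 4 member UMIs.

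Of the 20 fibroblast markers, 10 were tested after CX-5461 and 5 were lower, against 2.89% of all genes tested there. Among control cells 8 were tested and 6 were lower, against 5.76% of all genes tested. Acta2, smooth muscle actin, led both, with 4 against 487 UMIs and 2 against 590. Its log2 ratio in the CX-5461 library was -3.61, and 0.80 against cells matched on the mitochondrial share as well, so its direction there rests on which cells were matched. Those 487 UMIs came from 19 of 1060 matched cells and the 590 from 13 of 150. Fibroblast genes took up to 8.85% of the UMIs of a matched CX-5461-treated cell and 6.57% of those of a matched control cell, while medians were 0.0608% in members against 0.0695% in matched cells, and 0.0464% against 0.0570%. The part of matched cells with fibroblast RNA under the collagen limit in the lower Acta2, Tagln, Tpm2 and Lgals1 values was not tested. Tpm2, Tagln, Cryab, S100a6 and Xist were the other genes with the lowest ratios in the control library. S100a6 had 1.22 (1.06 to 1.39) in the CX-5461 library and 0.0921 (0.0396 to 0.182) in the control library. Macrophage markers were near 0, with 34 and 2 member UMIs over 10 genes. Primitive endoderm markers had 46 and 4 over 15 genes, and trophectoderm markers 521 and 11 over 14 genes, of which 434 and 0 were Krt7. Krt7, a keratin, had a ratio of 1.79 (1.61 to 1.98) in the CX-5461 library.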

How the data were processed

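Single-cell RNA-seq libraries from untreated and CX-5461-treated mouse ES cells were prepared with 10x Genomics 3′ reagents. The authors deposited UMI counts per gene and barcode, 1 table per condition, without normalization. Cells above the mitochondrial limit were still present (63 control and 225 CX-5461-treated). Only 8 control and 0 CX-5461-treated barcodes had under 500 UMIs, so barcodes were probably selected before deposit, by a rule not known here. The submitters' processing notes name Seurat 2.3.4 and mm10. A column of ambiguous counts, shared between genes, served to check near-identical copies. The methods name a published droplet pipeline with Bowtie as its aligner, replaced by HISAT2 for repeat sequences, which were not used here.

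Cells were kept with at least 500 UMIs, a mitochondrial share of at most 0.2, as in the study's methods, and under 0.1% collagen UMIs. The kept cells with at least 5 UMIs over 21 markers were taken as strongly 2C-like. For each of them, deepest first, the 10 unused kept cells with 0 marker UMIs and the nearest total UMIs were matched. UMIs were summed over each set and divided by its total (241086 and 2411410 for control, 1451220 and 14499751 for CX-5461) to give CPM. Genes with at least 100 UMIs over both sets were tested against a ratio of 2. In this depth 3 counts, the floor for a count of 0, equal 12.4 and 1.24 CPM in control members and matched cells and 2.07 and 0.207 CPM in CX-5461-treated ones. Intervals are exact at 95% (Clopper-Pearson for shares, conditional binomial for ratios) and cover counting error only. With 1 library per condition no p-value was computed. Medians of a list are over its tested genes. Counts past 2-fold in a list are to be read against all genes tested after CX-5461, 1.76% higher and 2.89% lower. For control cells these shares were 1.75% and 5.76%.

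The members, the markers and the lists were chosen with earlier results of these data known. Genes named were the 21 markers, Duxf3, the 12 highest and 12 lowest ratios in the CX-5461 table and 6 and 6 in the control table, and in each list the highest, the lowest and the most abundant gene. Other genes were named after their values were seen, among them Eci2, D10Wsu102e, the genes higher or lower in both libraries, and the lower genes with most UMIs. Not every gene the rule gives is described, and some are not reported here. GENCODE on GRCm38 gave symbols for 54079 of 54146 identifiers. Promoters came from RefSeq (GRCm38.p6), matched by symbol for 97 of 173 genes. Python 3.11.15, numpy 2.4.6, scipy 1.17.1, pandas 2.3.3 and matplotlib 3.10.9 were used, and edgeR 4.0.16 in R 4.3.3 for the TMM factors only. The pooled ratios were tested on simulated data. Alternatives were thresholds, matching, scaling, filters and thinning to 3000 UMIs with seed 1.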

Additional observations from a re-analysis of the deposited data

Results flagged for a closer look

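Marker UMIs were also found in cells that the limits on mitochondrial and collagen UMIs left out. After CX-5461, 6 of 225 cells above the mitochondrial limit (2.67%) had 5 or more marker UMIs, against 0 of 63 among untreated cells, which allows up to 4.76%. They had 6 to 29 marker UMIs, 3 to 24 UMIs of other 2C genes and 21.8% to 34.0% mitochondrial UMIs. Of the CX-5461-treated cells, 1 cell above the collagen limit had 21 marker UMIs and 9 UMIs of other 2C genes, with 0.178% of its UMIs on the collagen genes.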

How the results depend on the processing

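No paired analysis was possible because the columns are cells, carry no replicate number and come from 1 library per condition. The share of members in the CX-5461 library was 3.19%, 1.58% and 1.08% with limits of at least 3, 10 and 20 marker UMIs, and 1.13% after thinning to 3000 UMIs. It stayed within its counting interval of the stated value without the Zscan4 markers, without the collagen limit and with a mitochondrial limit of 0.1, as did the control share under every alternative. Counts of genes past 2-fold moved with the filter and the matching, in part because the number tested moved. In the control library 89 genes were higher and 356 lower of 2689 by the mean over cells of CPM, 822 and 920 of 10524 against all cells with 0 marker UMIs, 9 and 52 of 658 after thinning, 126 and 407 of 4192 with a filter of 50 UMIs, 18 and 61 of 1580 with a filter of 200 UMIs, 1447 and 858 of 16632 with no filter, and 62 of 1686 were lower with 5 matched cells per member. In the CX-5461 library the same alternatives gave 491 and 786 of 12404 against all cells with 0 marker UMIs, 57 and 126 of 3898 after thinning, 315 and 518 of 10778 with a filter of 50, 81 and 83 of 6238 with a filter of 200, and 1719 and 969 of 22923 with no filter. There 104 of 6584 genes were lower with 5 matched cells per member and 415 of 5779 in members with at least 20 marker UMIs. The median log2 ratio of core pluripotency genes in the CX-5461 library was -0.50 with the TMM factor, -0.40 by mean CPM, -0.33 against all cells with 0 marker UMIs, -0.24 after thinning and -0.34 with no filter. In the control library it was -0.30 with the TMM factor, -0.71 by mean CPM and -0.86 in members with at least 20 marker UMIs. The 2C activators had medians of 0.086 by mean CPM and 0.54 after thinning in the CX-5461 library, and 2.02 with 5 matched cells, 0.60 against all cells with 0 marker UMIs, 2.41 in members with at least 20 marker UMIs and 1.53 with a filter of 200 in the control library. Of 902 alternative values for the 101 named gene and table pairs past 2-fold, 39 (24 pairs) were no longer past it and 2 changed sign: Cryab in the control library after thinning (0.15) and Acta2 in the CX-5461 library when cells were also matched on the mitochondrial share (0.80). Of 414 alternative list medians, 21 changed sign. For members with 50 or more marker UMIs, 2 alternatives chosen after seeing the data put 5 of 40 ratios outside their counting interval, among them, in the control library, D10Wsu102e with 12.2 without the cell with most marker UMIs, and Eci2 with 121 and Dppa2 with 13.4 by mean CPM. Causes were not tested. The 15 control members set the precision of that library, and ratios that rest on a few member UMIs there have wide intervals.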
